A study of Homo sapiens with 6 samples.

Results

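The genes described here are 10 markers and regulators of the epithelial to mesenchymal transition, read in RNA-seq libraries of U2OS cells with and without silencing of the cholesterol enzyme squalene epoxidase (SQLE). They are the transcription factors SNAI1, SNAI2, ZEB1, ZEB2, TWIST1 and TWIST2, the cadherins CDH1, CDH2 and CDH11, and the intermediate filament gene VIM. All 10 were found by Ensembl identifier among the 19937 genes of the count table, and 9 of them entered the test, which took 12450 genes. CDH1 was left out by the filter on low counts. Gene positions below are on hg38 and span all transcripts of the gene in GENCODE v44. The rule that chose the 10 genes goes by name and function and uses no measured value, but it was set with earlier results of these data known.

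U2OS cells are a long-established line from a human osteosarcoma. The 6 libraries came from cells carrying a hairpin against SQLE (shSQLE, n = 3) and from cells carrying a scrambled, non-targeting hairpin (shControl, n = 3). Both groups had received their hairpin in the pGIPZ vector by lentivirus and were selected with puromycin, so that both were stably transduced populations. The study made 4 hairpins and kept the best one, so shSQLE stands for a single hairpin, and the study's general rule speaks of technical replicates within an experiment, without a statement on these libraries. The SDs and p-values below therefore measure the spread between libraries, which may be technical. In a bulk library, fewer cells with a transcript and less of it per cell cannot be told apart.

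In an epithelial sheet, E-cadherin, the product of CDH1, joins neighbouring cells through homophilic binding and anchors to actin through catenins. During the epithelial to mesenchymal transition, zinc finger factors of the SNAI and ZEB families and the helix-loop-helix TWIST factors repress CDH1 through E-box words in DNA, while N-cadherin (CDH2) and vimentin (VIM) become abundant and cells gain motility. Osteosarcoma arises in bone, a tissue of mesenchymal origin, where N-cadherin and cadherin-11 (CDH11, also called osteoblast cadherin) are the usual cadherins. Mesenchymal cells can express the same factors without passing through a transition.

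ZEB1 and ZEB2 share a sequence feature that the choice of members did not use. Their messages are known targets of the miR-200 family, small RNAs of epithelial cells that hold ZEB levels down and are themselves repressed by ZEB proteins. The family is shown because it splits by seed (bases 2 to 8, in capitals) into a pair of groups, whose mature sequences, 5′ to 3′, were taken from RefSeq (GRCh38.p14).
hsa-miR-200b-3p: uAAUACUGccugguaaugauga
hsa-miR-200c-3p: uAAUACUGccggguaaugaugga
hsa-miR-429: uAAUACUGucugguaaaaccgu
hsa-miR-200a-3p: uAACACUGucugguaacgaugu
hsa-miR-141-3p: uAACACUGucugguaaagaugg

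The words complementary to these seeds are CAGTATT and CAGTGTT. In the 3′ UTR of the canonical GENCODE v44 transcript, ZEB1 (2540 nt) held 9 such words, 6 of the first kind and 3 of the second, and ZEB2 (5370 nt) also held 9, of which 5 were of the first kind and 4 of the second. Only 0.0644% of the 12416 tested genes with a 3′ UTR, ZEB1 and ZEB2 included, held as many, whereas 33.9% held at least 1. The median 3′ UTR of these genes was 1366 nt, shorter than in ZEB1 and ZEB2. Among the 5826 with a 3′ UTR of 1500 nt or more, 56.8% held at least 1. The share of these 5826 that held 9 or more was not counted. SNAI2 and CDH11 held 1 word each, and SNAI1, TWIST1, TWIST2, CDH1, CDH2 and VIM held 0. A pair of sites in each ZEB message shows the context, with the word in capitals, on GRCh38 and read along the transcript.
ZEB1 chr10:31527618-31527640 (+ strand): attgttttatcttatCAGTATTa
ZEB1 chr10:31528031-31528053 (+ strand): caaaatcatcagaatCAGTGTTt
ZEB2 chr2:144389236-144389258 (- strand): tgcaaaaattttgtaCAGTGTTa
ZEB2 chr2:144389052-144389074 (- strand): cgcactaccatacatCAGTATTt

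These are matches of letters, not measured binding, and the poly(A) libraries do not measure mature miRNAs.

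The E-box word that SNAI and ZEB zinc fingers prefer, CAGGTG, with CACCTG on the other strand, was searched on both strands in the RefSeq promoter windows of GRCh38.p14, which reach from upstream of a start site to just past it. Windows were at hand for ZEB1 (7 start sites), CDH2 (2), ZEB2, TWIST2 and VIM (1 each); SNAI1, SNAI2, TWIST1, CDH1 and CDH11 had no entry. The word was in 2 of the 7 ZEB1 windows and in none of the windows of CDH2, ZEB2, TWIST2 and VIM, against 20.6% of all 35116 windows. The ZEB1 window at chr10:31318966-31319265 (+ strand) is printed because it held 3 copies, here in capitals, at positions 9, 166 and 284 counted from its 5′ end, where 3.49% of all windows held 2 or more.
ZEB1 promoter window: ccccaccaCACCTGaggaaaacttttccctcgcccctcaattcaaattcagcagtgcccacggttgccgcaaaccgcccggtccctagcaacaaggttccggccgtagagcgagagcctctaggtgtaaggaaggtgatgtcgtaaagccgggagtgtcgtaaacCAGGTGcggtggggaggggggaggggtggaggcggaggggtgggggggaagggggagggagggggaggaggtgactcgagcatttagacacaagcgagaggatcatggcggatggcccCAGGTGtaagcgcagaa

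Total counts on genes ranged from 12212378 to 14393292 per library. SQLE itself had normalized counts of 1349, 1867 and 1924 in the shControl libraries (replicates 1 to 3, in this order throughout) and of 229, 204 and 219 in the shSQLE libraries. Its log2 fold change was -2.98 ± 0.17 (SE; edgeR quasi-likelihood, adjusted p = 0.000299). A normalized count is the count scaled to the mean effective library size. One library stood apart. Counts of shControl replicate 1 differed from those of replicates 2 and 3 by 51.3 and 60.8 times the variance that sampling gives, whereas replicates 2 and 3 differed from each other by 2.76 times and the shSQLE replicates among themselves by 3.31 to 15.2 times. In shControl replicate 1, short and GC-rich transcripts were higher and long and AT-rich transcripts lower than in the other controls. The median log2 difference was 0.58 over 1569 genes with transcripts up to 1500 nt and -0.46 over 2424 genes with transcripts above 6000 nt. By GC content it was -0.55 up to 42% and 0.55 above 58%. The shSQLE libraries varied along the same axis but less, with a median difference between replicates 3 and 2 of -0.29 for the shortest and 0.24 for the longest class. The members' fold changes are therefore also given without shControl replicate 1.

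The label of the cell line was checked against lists of lineage markers, from which a few genes at either end of the range are named. RUNX2, a transcription factor of the osteoblast lineage, had 146 to 245 counts in every library, and SPARC, a matrix protein of bone, 5000 to 7017. SP7, ALPL, IBSP, THY1 and PDGFRB, which mark mature osteoblasts or stromal cells, had at most 3 counts in any library. Of 38 epithelial junction and keratin genes, 12 had at most 3 counts in every library, among them KRT5, KRT14, KRT19, CLDN1 and RAB25, and the epithelial factor GRHL2 had 0 counts in all 6. Other genes of the epithelial list were expressed, among them KRT18 (7205 to 11517 counts), the desmosomal genes PKP3 (981 to 1573) and DSG2 (586 to 1494), and EPCAM (46 to 76). Summed over the epithelial list, the level was 1327 to 1809 CPM in shControl and 1441 to 1633 CPM in shSQLE, most of it from KRT8 and KRT18. Of the 10 immune and endothelial markers, 6 were at or under 3 counts in all libraries, including PTPRC and CD3E, and the list summed to 1.88 to 2.21 CPM in shControl and 0.619 to 1.78 CPM in shSQLE, groups that did not overlap. PECAM1, the only one with enough counts to test, had a log2 fold change of -1.67 (edgeR adjusted p = 0.0933). CD68 had 3 to 11 counts. The part of these markers in the results below was not tested.

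VIM, which encodes the main intermediate filament protein of mesenchymal cells, was by far the most abundant of the 10. Its level per kilobase of canonical transcript, on the TPM scale, was 2597 ± 146 in shControl and 2777 ± 52.8 in shSQLE (SD, n = 3 each), which placed it at the 99.7th percentile of all genes in the table. Among 16 cytoplasmic intermediate filament genes, VIM made up 64.4% ± 4.92 of the summed per-length level in shControl and 64.7% ± 1.34 in shSQLE (SD, n = 3 each). KRT18 and KRT8, simple epithelial keratins, followed with 22.5% ± 3.49 and 12.5% ± 1.55 in shControl. The difference in the VIM share was smaller than the spread between libraries.

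After VIM, on the same per-length scale, came CDH2 at 58.2 ± 17.9 in shControl and 39.0 ± 7.38 in shSQLE, and TWIST2 at 50.3 ± 2.84 and 45.3 ± 4.31 (SD, n = 3 each). CDH11 followed at 24.9 ± 9.08 and 16.8 ± 2.42. TWIST1 lay at 18.1 ± 1.38 and 15.2 ± 1.01, ZEB1 at 15.8 ± 7.48 and 12.6 ± 3.28, and SNAI2 at 14.7 ± 3.56 and 12.8 ± 1.93. SNAI1 (7.76 ± 0.703 and 8.85 ± 0.103), ZEB2 (4.53 ± 1.97 and 2.90 ± 0.470) and CDH1 (0.0499 ± 0.0150 and 0) closed the order. Over the 6 libraries, the ranges of CDH2 and TWIST2 overlapped, as did those of CDH11 and TWIST1, of TWIST1 and ZEB1, and of ZEB1 and SNAI2, so that these neighbours could not be ranked. The ranges of VIM and CDH2, of TWIST2 and CDH11, and of all neighbours from SNAI2 downwards did not overlap. With the longest transcript in place of the canonical one as the length, 10 of the 20 group levels moved by more than 1 SD, for example TWIST1 in shControl from 18.1 to 22.9 and CDH2 in shSQLE from 39.0 to 49.9. The scale divides by the sum over all genes of a library, so the lengths of other genes enter these shifts as well.

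**Figure D1:**
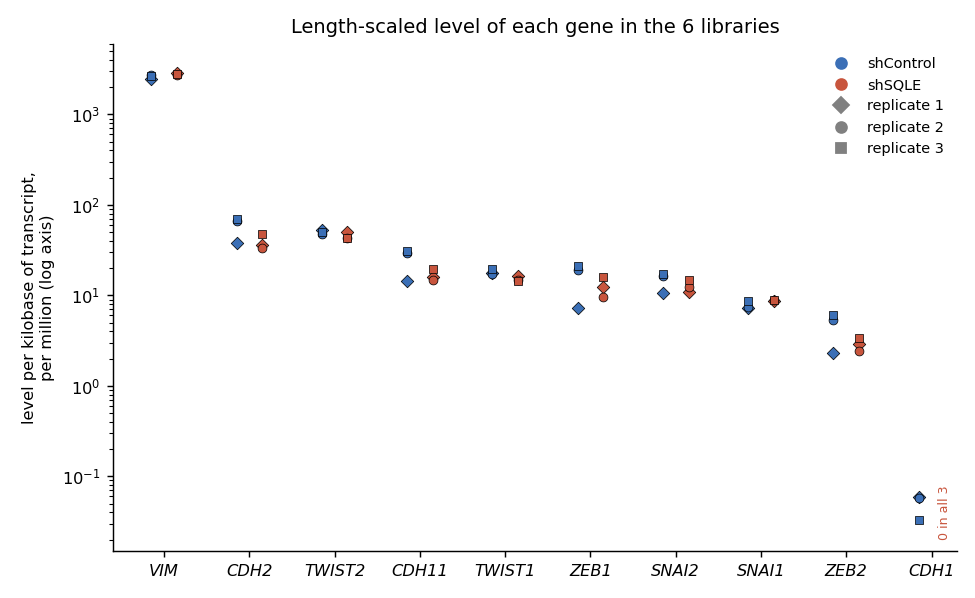
Level per kilobase of canonical transcript (TPM scale), on a log axis, for the 10 genes ordered by their mean. Each point is a library, coloured by group and shaped by replicate; VIM lies far above the rest in every library, CDH1 is at 0 in the 3 shSQLE libraries, and shControl replicate 1 is the lowest control for ZEB1, ZEB2, CDH2 and CDH11.

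Of the 6 transcription factors, the TWIST factors, basic helix-loop-helix proteins of mesoderm, gave the largest part of the message. TWIST2 made up 45.7% ± 7.42 of their summed per-length level in shControl and 46.4% ± 3.48 in shSQLE, and TWIST1 16.3% ± 1.40 and 15.5% ± 1.16 (SD, n = 3 each). ZEB1 had shares of 7.41%, 16.9% and 17.3% in shControl replicates 1, 2 and 3, and of 12.1%, 10.4% and 16.0% in shSQLE. SNAI1 had the one share whose groups did not overlap, at 7.39%, 6.60% and 7.01% in shControl and 8.61%, 9.73% and 8.92% in shSQLE. The third SNAI gene, SNAI3, had at most 3 counts in any library.

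In the comparison of shSQLE with shControl, which asks how loss of SQLE message changed the transcriptome, none of the 9 members tested passed an adjusted p of 0.05 in edgeR's quasi-likelihood test. Across all genes tested, 3.21% were called in either direction, 2.84% as lower and 0.369% as higher. DESeq2 also called 0 members. At an unadjusted p under 0.05, 2 members were below their controls, CDH2 and CDH11, and 0 above, where 9.89% of all genes were below and 4.83% above at that threshold. The fitted log2 fold changes of the 9 members ran from -0.53 (ZEB2) to 0.27 (SNAI1), with 7 below 0 and a median of -0.18. Over all 12450 genes tested, 6420 were below 0 and the median was -0.01. The groups did not overlap for 1 of the 9, SNAI1, whereas they did not overlap for 22.1% of all genes.

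**Figure D2:**
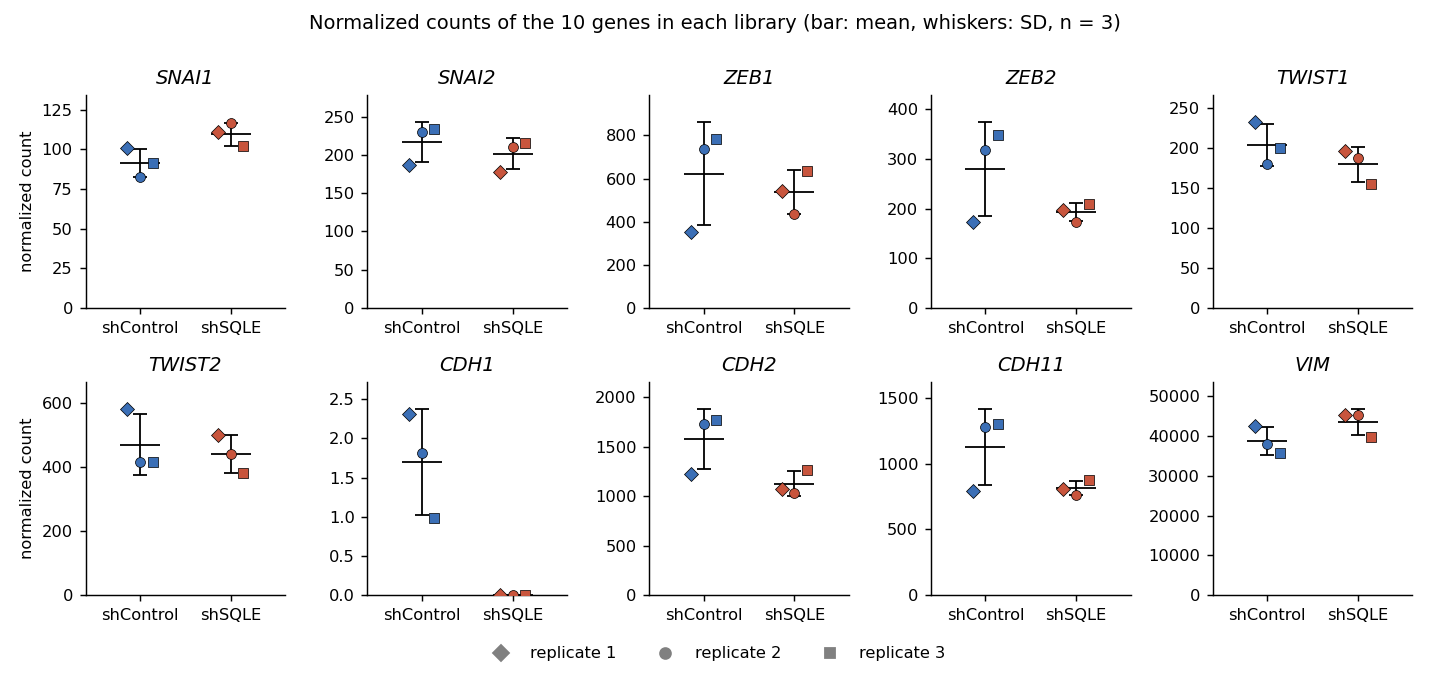
Normalized count of each gene in the 3 shControl and 3 shSQLE libraries, each panel on its own axis from 0, with lines for the mean and whiskers for the SD. In ZEB1, ZEB2, CDH2 and CDH11 the control of replicate 1 lies well below the other controls and among or near the shSQLE libraries.

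Among the cadherins, CDH1 (chr16:68737292-68835537, + strand) was at the edge of detection. The raw counts were 2, 2 and 1 in shControl and 0 in each shSQLE library. Since a count of 0 allows up to 3 counts, or 0.211 to 0.232 CPM in the shSQLE libraries, both groups were at or under that limit and no fold is given. The limit covers counting error only. No difference in E-cadherin message was detectable at this depth.

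CDH2 (chr18:27932879-28177946, - strand) encodes N-cadherin, which joins mesenchymal and neural cells. Its normalized counts were 1225, 1732 and 1765 in shControl and 1077, 1032 and 1268 in shSQLE. The shSQLE libraries were all below shControl replicates 2 and 3, while shControl replicate 1 fell within their range. The means were 1574 ± 302 and 1126 ± 126 (SD, n = 3 each), with a log2 fold change of -0.48 (95% interval -0.87 to -0.10, edgeR adjusted p = 0.215).

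CDH11 (chr16:64943753-65126112, - strand) encodes the cadherin of osteoblasts and other mesenchymal cells. It had normalized counts of 791, 1280 and 1300 in shControl and 805, 763 and 873 in shSQLE. As with CDH2, the shSQLE libraries lay near shControl replicate 1 and below the other controls. The log2 fold change was -0.47 (95% interval -0.91 to -0.02, adjusted p = 0.315 from edgeR). Within the cadherin family the proportions moved little for these genes. CDH2 made up 54.2% ± 2.84 of the summed per-length level of 22 cadherins in shControl and 51.7% ± 2.00 in shSQLE (SD, n = 3 each). CDH11 made up 19.7%, 24.7% and 24.5% in shControl and 22.5%, 22.4% and 22.2% in shSQLE. The groups overlapped for both.

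ZEB2 (chr2:144364364-144521057, - strand) encodes a zinc finger homeobox repressor of E-cadherin that is also known from neural crest development. Its normalized counts were 172, 318 and 347 in shControl, and 198, 174 and 209 in shSQLE. The lowest of the 6 values belonged to a control library and the 2 highest to the other controls. The log2 fold change was -0.53, with a 95% interval from -1.12 to 0.05 (adjusted p = 0.397 from edgeR), which includes 0. ZEB1 (chr10:31318495-31529814, + strand), its close relative, had 351, 735 and 784 normalized counts in shControl and 543, 435 and 636 in shSQLE. Here, too, shControl replicate 1 was the lowest library, and the log2 fold change was -0.22 with an interval from -0.89 to 0.46.

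SNAI1 (chr20:49982980-49988886, + strand), the founding member of the snail family of repressors, was the only factor with a higher mean in shSQLE. Its normalized counts were 101, 82.3 and 91.2 in shControl and 111, 116 and 102 in shSQLE. The lowest shSQLE library was just above the highest control, and the log2 fold change was 0.27 (95% interval -0.10 to 0.63, adjusted p = 0.522 from edgeR). SNAI2 (chr8:48917598-48921740, - strand), or slug, a marker of neural crest and mesenchymal progenitors, had 187, 230 and 234 normalized counts in shControl against 178, 210 and 216 in shSQLE. Its groups overlapped, with a log2 fold change of -0.11 and an interval from -0.46 to 0.24.

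TWIST1 (chr7:19020991-19117636, - strand), which holds back osteoblast differentiation, had normalized counts of 232, 180 and 200 in shControl and 197, 187 and 155 in shSQLE. TWIST2 (chr2:238848032-238910534, + strand), also called Dermo1, had 581, 415 and 417 in shControl and 501, 442 and 383 in shSQLE. The groups overlapped in both genes. Their log2 fold changes were -0.18 (95% interval -0.55 to 0.19) and -0.09 (95% interval -0.50 to 0.32).

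VIM (chr10:17228241-17237593, + strand) had normalized counts of 42521, 37859 and 35614 in shControl, and of 45339, 45247 and 39743 in shSQLE. The lowest shSQLE library was below the highest control. With means of 38665 ± 3524 and 43443 ± 3205 (SD, n = 3 each), the log2 fold change was 0.17 (95% interval -0.09 to 0.43, adjusted p = 0.589 from edgeR). VIM took 0.277% to 0.302% of all counts in shControl and 0.299% to 0.329% in shSQLE.

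Several calls on the members depended on shControl replicate 1. With that library left out, which leaves 2 controls against 3 shSQLE libraries, edgeR called CDH11, CDH2, ZEB2 and ZEB1 as lower and VIM as higher, 5 of 9 members, in a fit that called 33.9% of all genes (18.3% as lower and 15.6% as higher). The log2 fold changes were then -0.66 for CDH11 (adjusted p = 0.000179), -0.63 for CDH2 (adjusted p = 0.000482), -0.78 for ZEB2 (adjusted p = 0.000613), -0.50 for ZEB1 (adjusted p = 0.0114) and 0.24 for VIM (adjusted p = 0.0458, all by edgeR). SNAI1 at 0.34, SNAI2 at -0.20, TWIST1 at -0.08 and TWIST2 at 0.09 were not called in that fit either. CDH11, CDH2, ZEB2 and ZEB1 belong to the 2342 tested genes with transcripts above 4000 nt and under 44% GC. The bounds of this combined class differ from those of the other classes and just take in CDH2 (4016 nt, 43.1% GC). It is therefore not an independent background for these genes. The median log2 fold change of these 2342 went from -0.11 with all 6 libraries to -0.29 without that library. By length alone, the median went from -0.04 to -0.122 above 4000 and up to 6000 nt, and from -0.105 to -0.233 above 6000 nt. For the 2567 genes with transcripts above 1500 and up to 2500 nt, the class of VIM, it went from 0.04 to 0.13. The control levels per length without that library were 68.4 for CDH2, 30.2 for CDH11, 20.1 for ZEB1, 5.65 for ZEB2 and 16.7 for SNAI2, each higher than with it. No other library changed a member's call when it was left out.

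**Figure D3:**
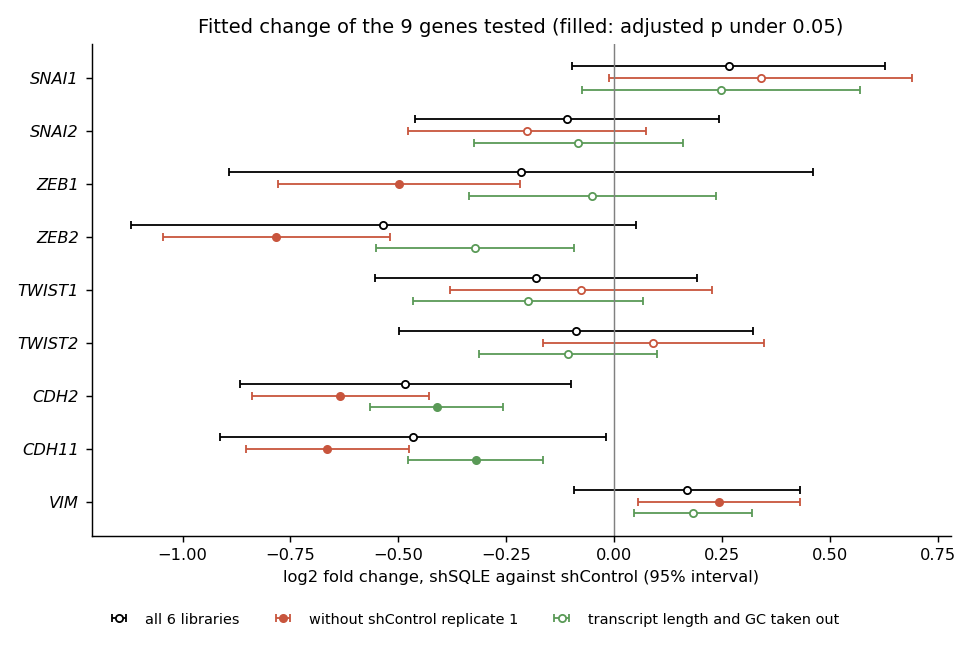
Log2 fold change of shSQLE against shControl with its 95% interval for the 9 genes tested, from all 6 libraries, without shControl replicate 1, and with trends on transcript length and GC content taken out. Filled points have an adjusted p under 0.05, which none reaches with all 6 libraries; CDH2 and CDH11 are filled in both other fits.

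The members fall on both ends of the length and GC trend of shControl replicate 1. ZEB2, CDH11, ZEB1 and CDH2 have canonical transcripts of 9265, 6722, 5937 and 4016 nt with a GC content of 38.9% to 43.1%, and were lower in shControl replicate 1 than in the mean of the other controls, by log2 differences of -0.94, -0.70, -1.11 and -0.51. The 2342 tested genes with transcripts longer than 4000 nt and under 44% GC, the combined class above, had a median of -0.64 on that measure. By length alone, the median was -0.28 above 4000 and up to 6000 nt, and -0.46 above 6000 nt. SNAI1, TWIST1, TWIST2 and VIM have transcripts of 1342 to 2154 nt with 54.3% to 58.4% GC, and differed by 0.21 to 0.48 in the other direction. SNAI2 (2180 nt, 41.2% GC) lay at -0.31. In a correction chosen after seeing the data, smooth trends on length and GC content were taken out of each library. There CDH2 was lower at -0.41 (95% interval -0.56 to -0.26, adjusted p = 0.00329) and CDH11 at -0.32 (95% interval -0.48 to -0.16, adjusted p = 0.0116), both by edgeR, while ZEB2 at -0.32 had an adjusted p of 0.0518, VIM at 0.18 one of 0.0598 and ZEB1 at -0.05 one of 0.816. The corrected fit called 20.7% of all genes, 8.67% as lower and 12.1% as higher.

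**Figure D4:**
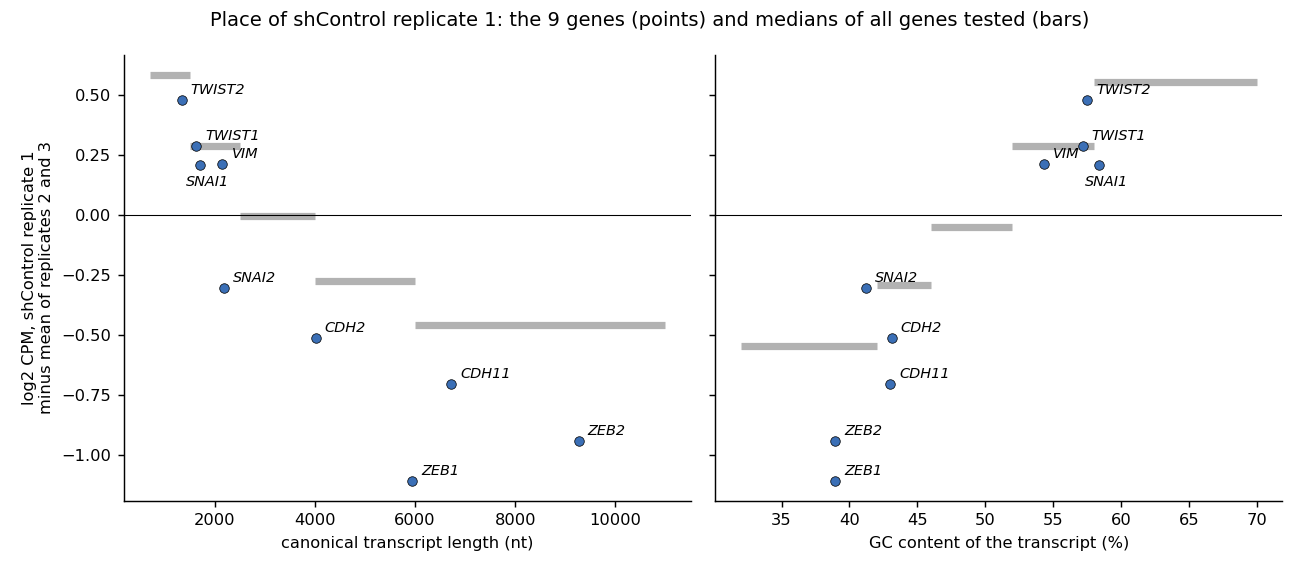
Difference in log2 CPM between shControl replicate 1 and the mean of replicates 2 and 3, against transcript length and GC content. Points are the 9 genes, and grey bars are medians of all genes tested within classes of length or GC, of which the outermost are open-ended; ZEB1, ZEB2, CDH11 and CDH2 lie below 0 with the long and AT-rich classes, and the TWIST genes, SNAI1 and VIM lie above 0.

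As a description of likeness over the 6 libraries, CDH2, CDH11 and ZEB2, the members with the smallest p, were set against the 9878 genes whose normalized counts averaged 100 or more. The log2 CPM of CDH2 was most like that of KLHL42, TRPS1 and SLC30A1 (Pearson r from 0.998 to 0.999, n = 6 libraries), that of CDH11 like PAM, SLC2A13 and TGFBR1 (0.997 to 0.999), and that of ZEB2 like ZNF800, TM9SF2 and IL6R (0.998 to 0.999). TRPS1 encodes a transcription factor of cartilage and bone, and TGFBR1 a receptor of TGF-beta. Between 282 and 453 genes reached an r above 0.95 with each of them. The points are the same 6 libraries throughout, so each r also carries what sets shControl replicate 1 apart. Among the members, the r of CDH11 was 0.99 with ZEB2 and 0.97 with CDH2, but -0.91 with VIM.

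Of the other genes of this programme, 179 distinct genes stood on 8 lists of factors, epithelial genes, cadherins, partners, cofactors and identity markers. Of the 115 tested, 10 were called, all as lower, beside the 2.84% lower calls over all genes tested. The lists were drawn up with earlier results of these data known. Among 21 tested of 23 other factors linked to the mesenchymal state, 2 were called as lower and 0 as higher, with a median log2 fold change of -0.11. PRRX1, a homeobox factor of limb and craniofacial mesenchyme, fell from 312, 495 and 543 normalized counts in shControl to 125, 122 and 118 in shSQLE, with a log2 fold change of -1.88 (95% interval -2.39 to -1.38, adjusted p = 0.00407 from edgeR). BHLHE40, a helix-loop-helix repressor linked to the circadian clock and hypoxia, fell from a mean of 2293 ± 159 in shControl to 1101 ± 78.6 in shSQLE (SD, n = 3 each). In both genes every shSQLE library was below every control, as in 12.1% of all genes tested. Both were called in every fit that left out 1 library.

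Among the epithelial genes the few calls were also toward lower values. Of 16 epithelial transcription and splicing factors, 5 had enough counts to be tested, and KLF4 and KLF5 were called as lower. KLF4, a zinc finger factor of epithelial differentiation and of stem cells, fell from 667, 657 and 714 normalized counts in shControl to 310, 290 and 283 in shSQLE, with a log2 fold change of -1.21, and KLF5 fell from 245 ± 47.6 to 109 ± 15.4. The KLF5 call was lost in 5 of 6 leave-one-out fits. None of 19 tested epithelial junction and keratin genes was called by edgeR, 2 were below and 1 above their controls at an unadjusted p under 0.05, and the median was -0.15. KRT18 and KRT8, the most abundant of them, had log2 fold changes of 0.16 and 0.08.

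Among the cadherins other than the members, 5 of 19 were tested and 2 were called, both as lower. CDH15, or M-cadherin, known from skeletal muscle, had raw counts of 45, 40 and 25 in shControl and 1, 2 and 0 in shSQLE. Against 3 counts in each shSQLE library it was at least 12.5-fold lower, and it was called in every alternative that tested it. CDH13, a cadherin anchored to the membrane by lipid with no cytoplasmic tail, fell from a normalized count of 331 ± 38.4 to one of 200 ± 13.8 (log2 fold change -0.73, edgeR adjusted p = 0.0367). It lost its call in 5 of 6 leave-one-out fits and shares its locus with HSBP1 on the same strand. As a share of the summed cadherin level per length, CDH13 went from 5.86% ± 0.191 to 4.69% ± 0.173 without overlap of the groups, beside CDH2 and CDH11 above. CDH4, or R-cadherin, CDH24 and CDH6 were not called, with log2 fold changes of 0.12, 0.26 and -0.33.

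The partners of cadherins and of vimentin showed few calls. None of 15 tested catenins and other cadherin partners was called by edgeR, with 2 below and 1 above at an unadjusted p under 0.05 and a median of -0.01. Beta-catenin (CTNNB1), which links cadherin tails to alpha-catenin and carries Wnt signals, had a log2 fold change of 0.18, and vinculin (VCL) one of 0.22. Of 10 tested intermediate filament and linker genes, SYNM alone was called. SYNM encodes synemin, which forms filaments together with vimentin or desmin, and fell from a normalized count of 673 ± 135 to one of 378 ± 21.7 (log2 fold change -0.83, edgeR adjusted p = 0.0412). This call, too, was lost in 5 of 6 leave-one-out fits.

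None of the 29 corepressors, kinases and ubiquitin ligases that act on SNAI, ZEB or TWIST proteins was called by edgeR, with 1 below and 1 above at an unadjusted p under 0.05. Their fitted values lay above 0 in 21 genes and below in 8, with a median of 0.11. Over all 12450 genes tested, 6030 lay above 0 and 6420 below, with a median of -0.01. HDAC2, a histone deacetylase, and USP7, a deubiquitinase, which had the highest mean counts of them, had log2 fold changes of 0.26 and 0.22.

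Of 14 tested genes of mesenchymal and osteoblast identity, 3 were called as lower and 0 as higher. NT5E, the ectonucleotidase CD73 of mesenchymal stromal cells, fell from a mean of 1269 ± 204 to 576 ± 19.4 in normalized counts (log2 fold change -1.14). S100A4, a calcium-binding protein of motile and fibroblast-like cells, fell from 210, 113 and 118 in shControl to 58.7, 50.3 and 45.2 in shSQLE (log2 fold change -1.50). Its log2 CPM in shControl replicate 1 was 0.85 above the mean of the other controls. Over the refits its log2 fold change ran from -1.66 to -1.16. S100A4 overlaps S100A3 on the same strand. COL1A1, a chain of the main collagen of bone, had a log2 fold change of -0.65. Leaving out 1 library at a time ended the calls of NT5E and S100A4 in 3 of 6 fits each, and that of COL1A1 in 5.

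The counting adds some uncertainty to single members. Antisense RNAs (ZEB1-AS1, ZEB2-AS1 and VIM-AS1) overlap ZEB1, ZEB2 and VIM on the opposite strand, and the sources used here do not state whether the strand was used. SNAI1 and SNAI2, ZEB1 and ZEB2, and TWIST1 and TWIST2 are pairs of paralogs, and how reads mapping to more than one gene were treated is not stated either.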

How the data were processed

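Poly(A) RNA of 6 U2OS libraries (3 shSQLE, 3 shControl) was sequenced as 151 bp pairs. Per the submitters' notes, the authors used fastp 0.20.0 for trimming, STAR 2.7.9a for alignment (hg38) and featureCounts 2.0 for counting, and deposited raw counts per gene without normalization. The annotation release is not given in the sources used here. Of 19937 identifiers, 19905 matched a symbol.

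Here, counts were filtered with filterByExpr, scaled by TMM and tested with edgeR 4.0.16 (quasi-likelihood, R 4.3.3, group as the only term), with Benjamini-Hochberg adjustment over all 12450 genes tested. The 95% intervals use the test's standard error and degrees of freedom. Levels per length used canonical GENCODE v44 transcripts. DESeq2 1.42.0, which the study names, other scalings and filters, a replicate block, and leaving out each library were the alternatives. The length and GC correction (mgcv 1.9.3) was added after seeing the data. The members and lists were chosen with earlier results of these data known. Named are SQLE, all members, and from each list up to 3 called genes with the smallest p or, where none was called, the 2 with the highest mean count; other genes named serve the check of the cell line, the family shares or the comparison of likeness, and were chosen after their values were seen. With totals of 12212378 to 14393292 counts, 3 or fewer counts were taken as the limit of detection.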

Additional observations from a re-analysis of the deposited data

How the results depend on the processing

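Over 117 refits of the 9 members' fold changes, 108 kept their direction and stayed on the same side of the threshold, 7 gained a call. With 0 members called from all 6 libraries, none could lose one. TWIST2 turned direction when 1 library was left out, with a range from -0.19 to 0.0905 (0.0905 without shControl replicate 1 and 0.0203 without shSQLE replicate 3). Members called lower numbered 0 to 4 and members called higher 0 to 1 without 1 library, in each case with the highest number without shControl replicate 1, and 2 were called lower with length and GC content taken out (an alternative chosen after seeing the data). All genes called lower numbered 555 with DESeq2, 1079 with length and GC content taken out and 101 to 2300 without 1 library. Those called higher numbered 153 with DESeq2, 1504 with length and GC content taken out and 4 to 1964 without 1 library. They numbered 10 where a cut on absolute log2 fold change (mean plus 2 SD, 0.966 here) was added to the adjusted p. The study used such a cut on DESeq2 results, so the 10 need not be its own number. Listed genes called lower numbered 20 with length and GC content taken out and 4 to 37 without 1 library, and those called higher 1 with DESeq2, 17 with length and GC content taken out and 0 to 15 without 1 library. The most came without shControl replicate 1 in each of these ranges. Apart from the left-out library, the cause was not tested.

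Whether the replicate numbers pair the libraries could not be told from the counts. Same-numbered libraries of the groups correlated in their deviations from the group means at 0.138, -0.433 and 0.543. The correlation of shControl replicate 1 with shSQLE replicate 2 was 0.542. Deviations within a group depend on each other and carry what sets shControl replicate 1 apart. With the replicate block, 0 members were called, and 362 genes were lower and 34 higher. The SQLE call held in every alternative. Depth limits CDH1, at 0 to 2 counts a library.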

Other observations

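The ID proteins bind the E proteins that TWIST factors pair with and cannot bind DNA themselves. For ID1, ID2 and ID4 every shSQLE library was below every control, yet none was called (log2 fold changes of -0.35, -0.85 and -0.94, adjusted p = 0.448, 0.183 and 0.0916 from edgeR). ID3, the other ID gene listed, had a log2 fold change of 0.03, and its groups overlapped. ID4 had raw counts of 30, 53 and 50 in shControl and 25, 25 and 19 in shSQLE. Across all genes tested, 12.1% had shSQLE below shControl without overlap. These genes were picked after their values were seen.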
